A study of Chlorocebus sabaeus with 6 samples.

Results

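Chromosome 20 of the African green monkey (Chlorocebus sabaeus) is described here in COS-1 cells, through every feature that the deposited expression table places on it with a mean of at least 1 FPKM (fragments counted relative to a feature's length and to the size of its library) over 6 libraries. This rule kept 2116 of the 3415 features listed on the chromosome, out of 51520 in the whole table, of which 28434 reached the same level. The chromosome itself was selected on the lentivirus minus control change in these same libraries, where its features were mostly higher. The size and direction of its change are therefore a description, and the counts and adjusted p-values below, taken from a fit over all chromosomes, are no independent evidence for it. At the edge of the rule, the 20 members with the lowest means (1.01 to 1.07 FPKM) had a median change of 0.017 log2, and the 20 features just left out (0.957 to 0.994 FPKM) had one of 0.027 log2.

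COS-1 is a fibroblast-like kidney line of the African green monkey that was transformed with simian virus 40 sequences. The study, whose title concerns the SHOC2 protein and the ERK1/2 kinase cascade, compared 3 control libraries from cells that received no treatment with 3 libraries from lentivirus-treated cells. Both groups went through 14 h without serum followed by 90 min with 2 ng/ml of epidermal growth factor, so each was sampled in the stimulated state and the labels name no unstimulated sample. The cargo of the lentivirus is not given in the labels, nor is any empty vector in the control cells. Whether replicates were grown separately is not stated either; the p-values then reflect library-to-library spread alone, and that spread may be technical.

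As background, epidermal growth factor acts through its receptor and RAS to switch on the kinases RAF, MEK and ERK, which drive the transcription of early response genes, and SHOC2 is a scaffold protein that helps RAF become active. A lentivirus copies its RNA genome into DNA and inserts it into the chromosomes of the host cell. Each gene of a chromosome is transcribed from its own promoter, so a change shared by many neighbours is read from the distribution of their changes, not from any gene alone.

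The features carry protein and transcript accessions, and neither the files nor RefSeq's gene table for the assembly mChlSab1.0.hap1 pairs any of the 51520 with a gene symbol (0 matched). Features are therefore given by position in the deposited table, whose genome build is not given in the sources used here, and what the single features encode was not analysed here. The markers of COS-1 cells could not be checked for the same reason. In that RefSeq assembly the chromosome of the same number holds 1527 protein-coding genes, among them JUN, a transcription factor of the early response, CDC20, an activator of the complex that ends mitosis, and STMN1, which destabilises microtubules. No value below is tied to them.

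Among the 2116 members, 953 were named by ENSP accessions and 1163 by JK accessions. Of the members, 680 were lone features, meaning that their positions overlapped no other row of the table, and 1436 overlapped at least 1 other. Overlapping rows can be alternative models of 1 gene whose reads the software divides among them. Overlapping rows were therefore also joined into loci and their FPKM summed, which gave 1149 loci with a mean of at least 1 FPKM on chromosome 20, out of 16072 in the genome. The sums hold every row of a locus, also rows under 1 FPKM. The members were expressed at a median of 14.3 FPKM, against 12.7 FPKM for the features of all other chromosomes, and the median spread within a group was 0.135 log2 on chromosome 20 and 0.132 log2 elsewhere.

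The chromosome was slightly higher as a whole in the lentivirus-treated cells. Its features changed by a median of 0.11 log2 on the log2(FPKM + 1) scale, which understates the change of low features, and the median ratio of the group means was 1.08-fold. Of the members, 69.3% were higher after lentivirus, against 48.3% of the 26318 features on other chromosomes, whose median change was -0.009 log2. The lower and upper quartiles of the members' changes were -0.039 and 0.261 log2, so the displacement was small beside the width of the distribution. Changes of 0.1 to 0.5 log2 upward were found in 43.3% of the members and changes of the same size downward in 13.2%, where all features gave 27.8% and 27.6%.

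All 3 lentivirus libraries stood above all 3 control libraries. Each feature was set against its own mean over the 6 libraries, and the median of these deviations over the chromosome was taken for each library. It was -0.044, -0.063 and -0.049 log2 in control replicates 1, 2 and 3, and 0.061, 0.062 and 0.052 log2 in lentivirus replicates 1, 2 and 3. The groups did not overlap, and the gap between them (0.096 log2) exceeded the widest gap inside a group (0.018 log2 among controls, 0.011 log2 among lentivirus libraries). Over all other chromosomes the library medians ran from 0.003 to 0.017 log2 in control and from -0.013 to 0.003 log2 in lentivirus libraries, a pool of chromosomes with higher and with lower medians. Taken singly, 10 of the 29 other chromosomes also had all lentivirus medians above all control medians, and 13 had them all below. The gap between groups was 0.095 log2 on chromosome 24, 0.083 on chromosome 17 and 0.07 on chromosome 23, so separate groups were not particular to chromosome 20. Compared library by library, the 9 pairs of 1 lentivirus and 1 control library had median differences of 0.091 to 0.124 log2 over the members, and the 6 pairs inside a group differed by at most 0.013 log2.

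The chromosome also held a larger share of the deposited signal. Its members made up 7.76%, 7.62% and 7.76% of the summed FPKM of the control libraries and 8.23%, 8.08% and 8.01% of that of the lentivirus libraries, and the groups did not overlap. Without members that span under 300 bases, whose FPKM can be very high, the shares were 5.03% ± 0.038 in control and 5.46% ± 0.035 in lentivirus libraries (SD, n = 3).

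**Figure D1:**
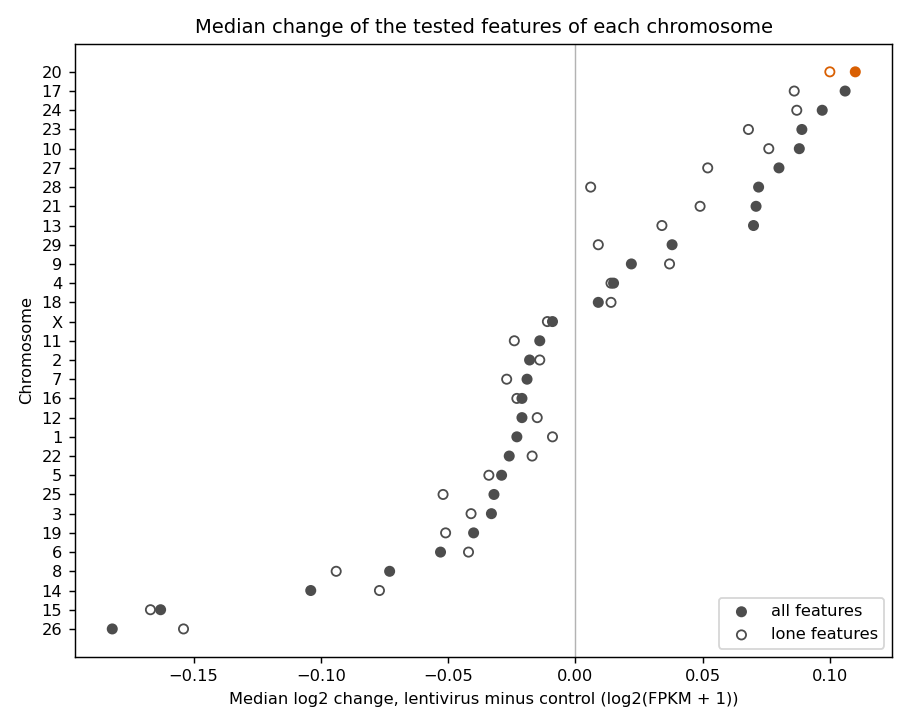
Median log2 change (lentivirus minus control, log2(FPKM + 1)) of the tested features of each chromosome with at least 50 of them; filled points stand for all features, open points for lone features, and chromosome 20 is in orange. Chromosome 20 has the highest median, 0.11 log2 over all features and 0.1 log2 over lone features, with chromosomes 17 and 24 close behind and chromosome 26 lowest.

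Chromosomes 17 and 24 were the nearest to it, with median changes of 0.106 and 0.097 log2 over 1122 and 823 features and 66.3% and 67.3% of features higher. Chromosome 20 ranked 1 of 30 chromosomes by its median, by the share of features that were higher, and by the median of its lone features. By the share of features called higher it ranked 3, and its excess over chromosomes 17 and 24 was not tested.

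Single features were tested with limma on log2(FPKM + 1) over all 28434 features, with Benjamini-Hochberg adjustment, and called at an adjusted p under 0.05. On chromosome 20, 150 of 2116 features (7.09%) were called higher and 18 (0.851%) were called lower, beside 2.89% called higher and 3.59% called lower among all features tested. The called increases were mostly small, with a median of 0.34 log2 (1.28-fold), and 25 of the 150 reached 0.5 log2. The called decreases were fewer and larger, with a median of -0.62 log2, and 12 of the 18 reached 0.5 log2. Over all features the called increases had a median of 0.4 log2 and the called decreases one of -0.45 log2. Without regard to calls, all 3 lentivirus values lay above all 3 control values in 585 members (27.6%) and below them in 140 (6.62%), beside 15.1% and 16.5% of all features. The count of called features rested on all 6 libraries: without any 1 of them between 0 and 6 members were called higher and between 0 and 4 lower.

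Summed loci gave more calls. Of the 1149 loci of chromosome 20, 234 (20.4%) rose and 41 (3.57%) fell by limma with Benjamini-Hochberg adjustment over 16072 loci, beside 8.88% called higher and 10.6% called lower among all loci. The median change of the loci was 0.104 log2, and 70.3% of them were higher. The 234 called increases had a median of 0.31 log2 and the 41 called decreases one of -0.37 log2. Without any 1 library, 102 to 152 loci were called higher and 15 to 27 lower, and in each of these fits more loci were called higher than lower. The shares called among all features and all loci in the fits without 1 library are not given here, so these counts lack a background.

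The lone features, whose values share no reads by position with another row, gave nearly the same picture. Over the 680 lone features the median change was 0.1 log2, 68.1% were higher, and the library medians were -0.046, -0.059 and -0.049 log2 in control and 0.061, 0.054 and 0.042 log2 in lentivirus libraries. The 1436 overlapping features had a median of 0.115 log2, with 69.9% higher. Among lone features 61 (8.97%) were called higher and 8 (1.18%) lower, beside 3.82% and 4.95% of all 9949 lone features. Their spread was smaller: the median within-group SD was 0.102 log2 for lone features and 0.163 log2 for overlapping ones. By crowding, the median change was 0.116 log2 in loci of 2 to 5 features, 0.13 log2 in loci of 6 to 20 and 0.082 log2 for the 131 features in loci of over 20. The kind of accession made little difference to the direction: 69.8% of ENSP features and 69% of JK features were higher, with medians of 0.099 and 0.119 log2. Calls were more frequent among the ENSP features (10.6% higher, beside 4.02% of all ENSP features) than among the JK features (4.21%, beside 1.86%), and the median within-group SD was 0.091 log2 for the former and 0.203 log2 for the latter. Features were higher in most cases at every span too, from 61% of those under 300 bases to 71.9% of those of 10000 bases and over.

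By expression level, the change was smallest among the weakly expressed features. Members were split by their mean over the 6 libraries into 575 features of 1 to 5 FPKM, 667 of 5 to 20, 626 of 20 to 100 and 248 of 100 FPKM and over. Their median changes were 0.058, 0.127, 0.137 and 0.104 log2, and 59%, 70.5%, 75.1% and 75.8% of them were higher. Called increases numbered 8 in the lowest class (1.39%, beside 0.822% of all features of that level), 36 in the next (5.4%, beside 2.62%), 83 at 20 to 100 FPKM (13.3%, beside 4.82%) and 23 at the top (9.27%, beside 4.01%). Called decreases numbered 6 (1.04%), 7 (1.05%), 3 (0.479%) and 2 (0.806%) in the same order, beside 1.71%, 3.45%, 4.74% and 5.91% of all features of those levels. In each of the 4 classes the library medians of the groups were apart.

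Among lone features the change was smallest in the lowest class. The 243 lone features of 1 to 5 FPKM had a median change of 0.027 log2, and 54.7% of them were higher. Their library medians were -0.022 ± 0.015 log2 in control and 0.012 ± 0.013 log2 in lentivirus libraries (SD, n = 3), with a gap of 0.005 log2 between the groups. The 248 of 5 to 20 FPKM had a median of 0.14 log2 and 73.4% were higher. At 20 to 100 FPKM the 138 lone features had a median of 0.148 log2 with 77.5% higher, and at 100 FPKM and over the 51 had one of 0.117 log2 with 80.4% higher. Split into quartiles of mean FPKM instead, the lone features had medians of 0.005, 0.081, 0.141 and 0.144 log2 from the lowest to the highest, and the groups overlapped in the lowest. The pseudocount of 1 shrinks the change of low features by construction. The log2 ratio of group means, which has none, had medians of 0.039, 0.149, 0.15 and 0.122 in the 4 classes of lone features and 0.082, 0.138, 0.133 and 0.104 in those of all members. Over all chromosomes the lone features of 1 to 5 FPKM had a median of -0.022 log2 and the higher classes medians of -0.005 to 0.005 log2. Across the 680 lone features the change and the mean level had a Spearman's rho of 0.227, as a description over features of the same 6 libraries. The rho was 0.168 with a pseudocount of 0.1 and 0.333 with one of 5. Across all 2116 members it was 0.079, with 0.031 and 0.187 at the same pseudocounts.

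**Figure D2:**
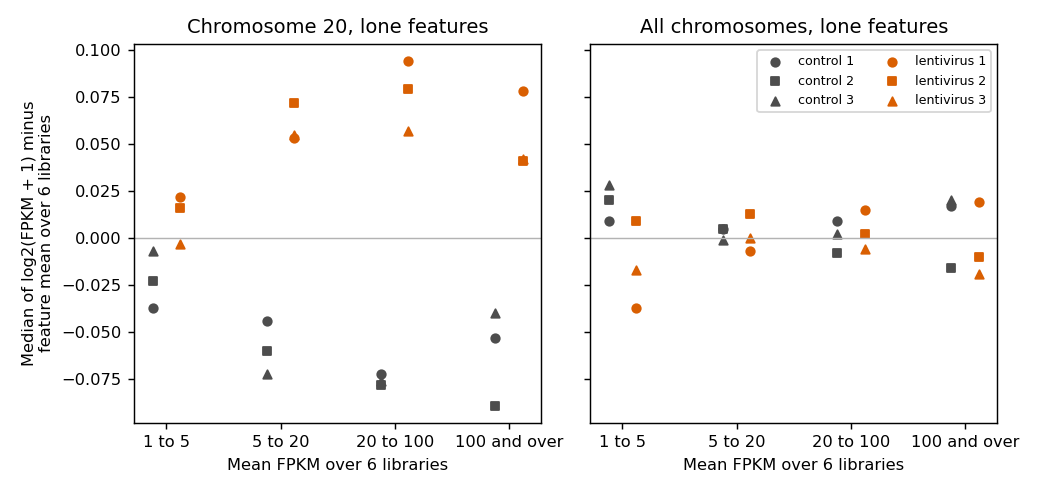
Median deviation of each library from the feature mean (log2(FPKM + 1)) in 4 classes of mean FPKM, for lone features of chromosome 20 (left) and of all chromosomes (right); each point is 1 library. On chromosome 20 the lentivirus libraries lie above the control libraries in every class, by least at 1 to 5 FPKM, where the median change was 0.027 log2.

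Along the chromosome the change was present in every 10 Mb bin but varied in size. All 14 bins had a positive median over features, from 0.038 log2 (20 to 30 Mb) to 0.204 log2 (90 to 100 Mb), and likewise over lone features (0.029 to 0.163 log2) and over loci (0.042 to 0.177 log2). Of 249 bins with at least 20 loci on other chromosomes, 39% had a positive median over loci. The 6 library medians of the groups did not overlap in 12 of the 14 bins over features. They overlapped at 20 to 30 Mb and at 130 to 140 Mb, the last and shortest stretch.

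Of the longer stretches compared next, those of the first 40 Mb moved least. Single bins did not all follow this order. The last, 130 to 140 Mb, had a median of 0.06 log2 over its 30 loci. That was below the 0.07 log2 at 10 to 20 Mb and the 0.072 log2 at 30 to 40 Mb. From 0 to 20 Mb the 280 loci had a median of 0.051 log2, and 62.5% were higher. Of these loci 35 were called higher (12.5%, beside 8.88% of all loci) and 16 lower (5.71%, beside 10.6%). The 154 lone features there had a median of 0.032 log2 and the 562 features one of 0.089 log2. From 20 to 40 Mb the 104 loci had a median of 0.058 log2, with 12 called higher (11.5%, near the 8.88% of all loci) and 5 lower (4.81%). The 169 features there had a median of 0.044 log2. Within the first 5 Mb the direction depended on the rows used: the 110 features had a median of 0.025 log2, the 66 loci one of -0.011 log2 and the 30 lone features one of -0.062 log2. Of these lone features 36.7% were higher. All 3 lentivirus library medians (-0.083, -0.066 and -0.001 log2) lay below all 3 control medians (0.036, 0.062 and 0 log2). The nearest of them almost touched, while the widest gaps inside a group were 0.062 log2 in control and 0.082 log2 in lentivirus libraries. Over features and over loci the groups overlapped. The 6 consecutive loci at the very beginning, from 1271703 to 1594644, were all lower, by a median of -0.294 log2, and 3 of them were called. They form one of the 3 longest runs of lower loci on the chromosome, each of 6 loci. The loci of this run from 1564208 to 1594644 lie close to one another. Whether they are pieces of 1 transcript was not tested, so they may not be separate changes. A run of lower loci holds only falling ones, so its called loci have no like background here.

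The middle and the distal part moved more as whole stretches. From 40 to 80 Mb the 153 loci had a median of 0.142 log2, 75.8% were higher, and 39 were called higher (25.5%, beside 8.88% of all loci) and 5 lower (3.27%, beside 10.6%). By the limma fit over features, 28 of the 248 features there were called higher (11.3%, beside 2.89% of all features) and 0 lower (beside 3.59%), with 69 higher and 12 lower at an unadjusted p under 0.05; the 5 falling loci were called by the fit over loci. From 80 to 110 Mb the 389 loci had a median of 0.124 log2, with 99 called higher (25.4%) and 9 lower (2.31%). The bin of 90 to 100 Mb stood out within it: 85.8% of its 120 loci were higher, and 39 were called higher (32.5%) and 2 lower (1.67%). Its library medians over loci were -0.089, -0.112 and -0.07 log2 in control and 0.129, 0.091 and 0.066 log2 in lentivirus libraries. From 110 to 140 Mb the 223 loci had a median of 0.101 log2, with 49 called higher (22%) and 6 lower (2.69%).

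The longest run of consecutive higher loci held 24 loci from 100699778 to 103833155, with a median of 0.143 log2 and 7 called higher. Among all loci 8.88% were called higher, but a run holds only loci that rose. That share, over loci of both directions, is therefore not a like background for the calls in runs, and no excess is read from them. A run of 20 loci from 79685971 to 81598143 had a median of 0.202 log2, and 10 of the 20 were called higher. A run of 18 loci from 96794641 to 98033164 had the highest median of these, 0.282 log2, with 9 called. Runs of 15 loci lay from 93017407 to 94051772 and from 95389231 to 96767796. No run of lower loci exceeded 6. On other chromosomes the longest run of higher loci held 36, on chromosome 21.

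The densest change lay between 97 and 98 Mb, where 12 of 12 loci were higher, with a median of 0.345 log2. Of these 8 were called, beside 8.88% called higher among all loci. This stretch was picked because its median was the highest of the 58 stretches counted below. There the library medians were -0.162, -0.214 and -0.228 log2 in control and 0.191, 0.15 and 0.206 log2 in lentivirus libraries, so the groups lay far apart. Between 78 and 79 Mb 12 of 13 loci were higher (median 0.259 log2, 5 called). Such stretches lay beside flat ones. Between 104 and 105 Mb 11 of 22 loci were higher, with a median of 0.012 log2. Between 24 and 25 Mb the median of 20 loci was -0.006 log2, with 2 of the 20 called lower, near the 10.6% of all loci. Of 58 stretches of 1 Mb with at least 8 loci, 54 had a positive median. Neighbouring loci resembled each other weakly: the change of a locus and that of the next one had a Spearman's rho of 0.161 over 1148 pairs, 0.042 at a distance of 5 loci and -0.01 at 20. Between libraries of 1 group the rho was -0.006 to 0.058 for next neighbours, -0.001 to 0.098 at 5 loci and -0.007 to 0.099 at 20. The lentivirus minus control value exceeded that range for next neighbours and not at 5 or 20 loci. Each within-group value sets 1 library against 1 other and is noisier than a difference between means of 3 libraries. The 2 kinds of value are therefore not alike, and the excess for next neighbours was not tested.

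**Figure D3:**
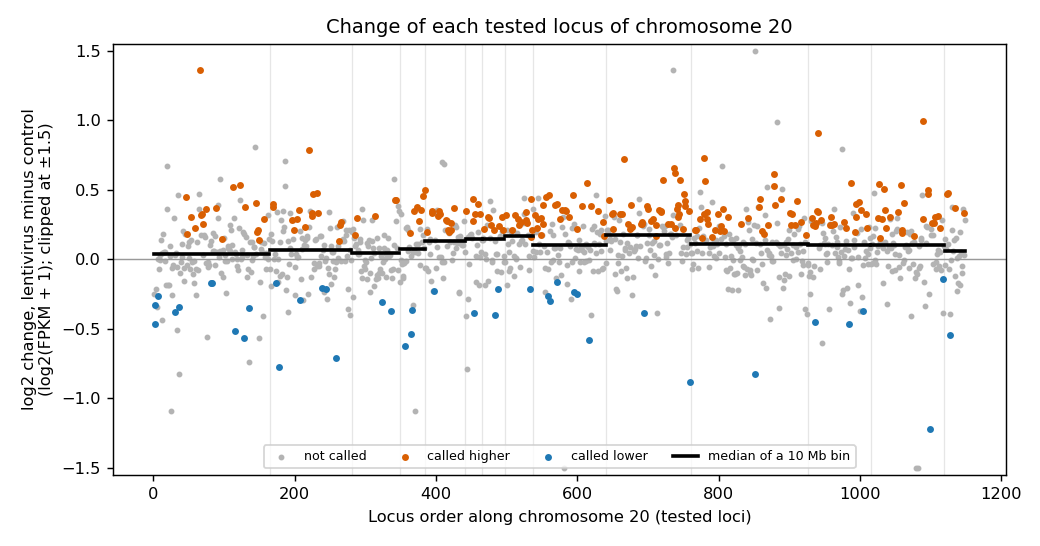
log2 change (lentivirus minus control, log2(FPKM + 1)) of the 1149 tested loci of chromosome 20 in their order along it; black bars are medians of 10 Mb bins, bounded by pale lines, orange and blue points are loci called higher and lower, and changes beyond 1.5 log2 are drawn at 1.5. All 14 bars lie above 0, and the 234 called increases are spread over the whole chromosome.

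The libraries of 1 group did not run in parallel along the chromosome. Control replicate 2 was the highest control at 20 to 30 Mb (0.01 log2, against -0.017 and -0.027 for control replicates 1 and 3) and the lowest at 130 to 140 Mb (-0.129 log2, against -0.003 and -0.006). From 110 to 140 Mb the control medians over features were -0.013, -0.1 and -0.045 log2 and the lentivirus medians 0.09, 0.065 and 0.027 log2. The spread inside each group was wider there than over the chromosome as a whole, and the groups did not overlap. Without control replicate 2 the median change of all features of the chromosome was 0.103 log2, and without any 1 of the 6 libraries it was 0.103 to 0.114 log2.

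**Figure D4:**
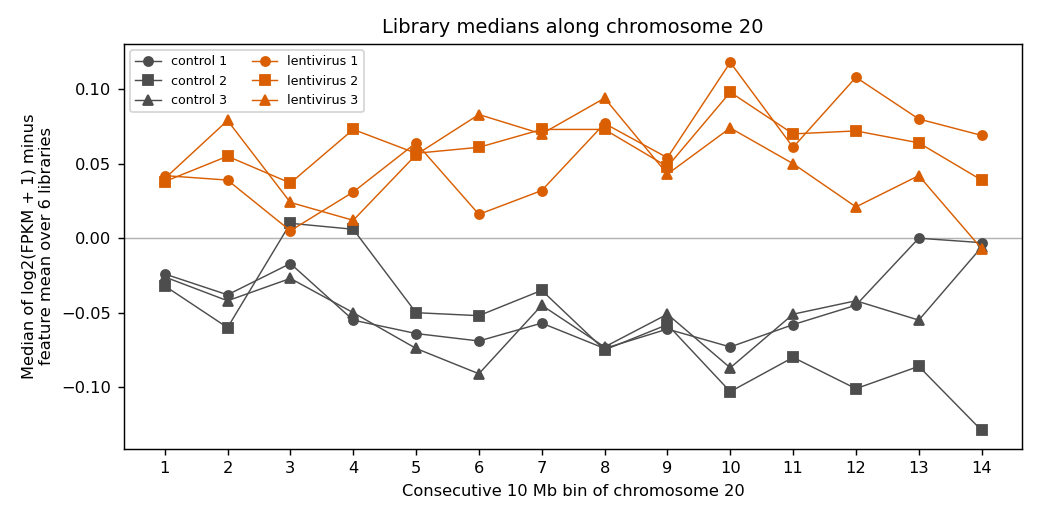
Median deviation of each library from the feature mean (log2(FPKM + 1)) over the features of 14 consecutive 10 Mb bins of chromosome 20, in order; each line is 1 library. The lentivirus libraries lie above the control libraries in all bins but the third and the last, and control replicate 2 falls to -0.129 log2 in the last bin.

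The increases described here are called ones, at widely differing levels of expression. The largest rise of any tested locus, 2.04 log2, was not called. A called feature or locus was described when it had at least 5 FPKM in the higher group, at least 1 FPKM in every library and groups that did not overlap. On chromosome 20, 58 lone features and 221 loci met this upward, and 6 and 34 downward. The shares of all lone features and all loci that met it are not given here, so these counts only describe the choice. The locus from 4891935 to 4928701, which joins 13 features, rose from 2.55, 3.34 and 2.81 FPKM in the control libraries to 8.92, 10.1 and 8.08 FPKM in the lentivirus libraries. This was 3.12-fold, or 1.36 log2 with SE 0.11 (limma adjusted p = 0.00202), with the groups far apart. Its 2 members of at least 1 FPKM were not called singly: one was 0.684 ± 0.138 FPKM in control and 1.39 ± 0.175 in lentivirus libraries, the other 0.24 ± 0.293 and 2.62 ± 1.52 FPKM (SD, n = 3). The rest of the sum came from features of the locus under 1 FPKM. The locus of 3 features from 127900975 to 127903371 came next, from 4.26, 5.21 and 9.73 to 11.8, 14 and 13.5 FPKM (2.05-fold, limma adjusted p = 0.0416), and lost its call in 5 of the 6 fits without 1 library. The 27-feature locus from 12756196 to 12760367 rose from 35.4, 31.3 and 34.1 to 58.4, 65.2 and 53 FPKM (0.79 log2, limma adjusted p = 0.00393), with 1 of its 12 tested features called.

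Among lone features JK109703.1, a short feature from 111815955 to 111816021, had the largest called rise. It stood at 479, 558 and 356 FPKM in control and at 819, 800 and 965 FPKM in lentivirus libraries, 1.86-fold higher (0.91 log2, SE 0.18). Its limma adjusted p was 0.0492 over features and 0.0155 over loci, and the call over features was lost without any 1 library. ENSP00000309792 (100649178 to 100655267) rose from 6.78, 7.42 and 8.72 to 12.7, 12.8 and 14.4 FPKM, 1.74-fold (0.73 log2, SE 0.1, limma adjusted p = 0.0252). In the fit over features it lost its call without any 1 library (limma adjusted p = 0.0678 to 0.0934). Tested as a locus (limma adjusted p = 0.00674) it kept it (0.0146 to 0.0286). Each of the 10 lone features with the largest rises and of the 6 falling ones that met the criteria lost its call over features in at least 4 of the 6 fits without 1 library. A second lone feature close to it, from 100663346 to 100665779, rose from 3.91 ± 0.412 to 6.24 ± 0.369 FPKM (SD, n = 3).

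Several of the largest rises were neighbours. Within the stretch of 97 to 98 Mb, the lone feature from 97097114 to 97131969 was at 21.6, 23 and 21.7 FPKM in control and at 35, 34.6 and 37.1 FPKM in lentivirus libraries. It rose 1.61-fold (0.66 log2, SE 0.051, limma adjusted p = 0.0108). The next, from 97152456 to 97153140, rose from 7.34, 6.63 and 6.53 to 10.3, 11.4 and 11.5 FPKM (1.62-fold). The 6-feature locus from 97862327 to 97911243 rose from 19.5, 19.6 and 18.3 to 27.2, 29 and 30.8 FPKM (1.52-fold, limma adjusted p = 0.00368), with all 4 of its tested features higher and none called singly. In the fit over features the first of these lost its call in 5 of the 6 fits without 1 library and the next in 6 of 6. As loci all 3 kept their calls without any 1 library.

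Other close pairs lay farther apart from one another. The lone feature from 107208659 to 107209096 rose from 13.8 ± 1.71 to 20.2 ± 1.08 FPKM. The locus just before it, from 107207370 to 107207537, rose from 21.4 ± 3.45 to 33.1 ± 3.59 FPKM but lost its call in 3 of the 6 fits without 1 library. Another 2 long lone features rose: from 39566167 to 39679227, 3.38 ± 0.0693 became 5.02 ± 0.239 FPKM, and from 39975970 to 40074450, 5.45 ± 0.403 became 8.12 ± 0.667 FPKM. At 92405157 to 92406276 a lone feature stood at 6.54, 7.76 and 5.62 FPKM in control and at 11.4, 11 and 12.2 FPKM in lentivirus libraries (1.74-fold). At 12823172 to 12823827, not far from the 27-feature locus, another rose from 26.3 ± 0.848 to 36.7 ± 1.18 FPKM.

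In the 10 Mb bins described next, the leading locus among those that met the criteria was a modest one with tight replicates. The criteria required a call and groups without overlap, so they favoured tight replicates. Larger changes of loci that did not meet them lay in the same bins. Among these were 0.7 log2 at 40 to 50 Mb, -0.79 log2 at 50 to 60 Mb and 0.58 log2 at 20 to 30 Mb. From 57429604 to 57467969 a locus of 1 feature rose from 39.7, 37.7 and 40 to 51.4, 50.4 and 53.9 FPKM (1.33-fold, limma adjusted p = 0.00484). From 62932540 to 62994839 another rose from 28.3, 30.2 and 30.1 to 36.4, 35.6 and 38.1 FPKM (1.24-fold). The 3-feature locus from 79703801 to 79710427 rose from 51.9 ± 1.27 to 70.5 ± 5.15 FPKM, and the locus from 47783937 to 47785997 from 12.2 ± 0.46 to 16.1 ± 0.996 FPKM. The locus from 25458973 to 25459652 rose from 8.97 ± 0.705 to 12.4 ± 0.782 FPKM, and lost its call in 1 of the 6 fits.

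A minority of features fell against the direction of their chromosome, and these included its largest called change of a lone feature. ENSP00000367714, from 129027369 to 129028062, was at 16.1, 14.3 and 15.3 FPKM in control and at 5.67, 6.7 and 5.51 FPKM in lentivirus libraries. It fell to 0.391 of the control mean (-1.22 log2, SE 0.09, limma adjusted p = 0.00935), and the groups were far apart. In the fit over features it lost its call in 4 of the 6 fits without 1 library (limma adjusted p = 0.0329 to 0.0641), and as a locus in none (0.00643 to 0.0134). ENSP00000357384, from 8689995 to 8690358, fell from 68.8, 64.3 and 70.6 to 52.6, 43 and 41.4 FPKM (-0.57 log2, limma adjusted p = 0.0398). The other 4 lone features that met the criteria fell by less than these 2. Of these, 2 lay near the beginning of the chromosome, from 1489849 to 1523277 (46.1 ± 1.04 to 36.6 ± 1.52 FPKM) and from 2966863 to 2984330 (14.9 ± 0.634 to 11.5 ± 0.429 FPKM). The remaining 2 lay from 24067488 to 24080621 (9.14 ± 0.134 to 7.21 ± 0.279 FPKM) and from 24659959 to 24705168 (21.4 ± 0.379 to 16.3 ± 0.838 FPKM).

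Falling loci of several features were led by 2 in the body of the chromosome. The locus from 105902976 to 105903802 fell from 6.55, 5.82 and 5.6 to 2.93, 3.59 and 2.39 FPKM (-0.82 log2, limma adjusted p = 0.00888). The 16-feature locus from 10258212 to 10260398 fell from 19.3, 20.3 and 19.5 to 10.9, 13.5 and 9.28 FPKM (-0.77 log2, limma adjusted p = 0.0106), although none of its 5 tested features was called. The locus from 32824971 to 32986230 fell from 9.1 ± 1.1 to 5.54 ± 0.334 FPKM. The locus from 88135307 to 88171889 fell from 304, 309 and 310 to 164, 212 and 249 FPKM, and lost its call in 4 of the 6 fits without 1 library. Nearly all of its drop was in 1 short feature, from 88154293 to 88154379 (215 ± 14.1 to 117 ± 35 FPKM), while the long feature over the whole locus was at 49 ± 1.67 and 48.1 ± 1.06 FPKM. The other 4 of the 10 largest falls were smaller and lost their calls in 3 to 5 of the 6 fits without 1 library. They lay from 130096143 to 130101813 (11 ± 0.916 to 7.31 ± 1.53 FPKM), which led the last 10 Mb bin, from 7997112 to 8018956 (10.9 ± 1.23 to 7.33 ± 0.862 FPKM), from 1564208 to 1564771 (16.3 ± 1.92 to 11.5 ± 0.325 FPKM) and from 116223463 to 116276253 (5.96 ± 0.772 to 4.03 ± 0.0227 FPKM).

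**Figure D5:**
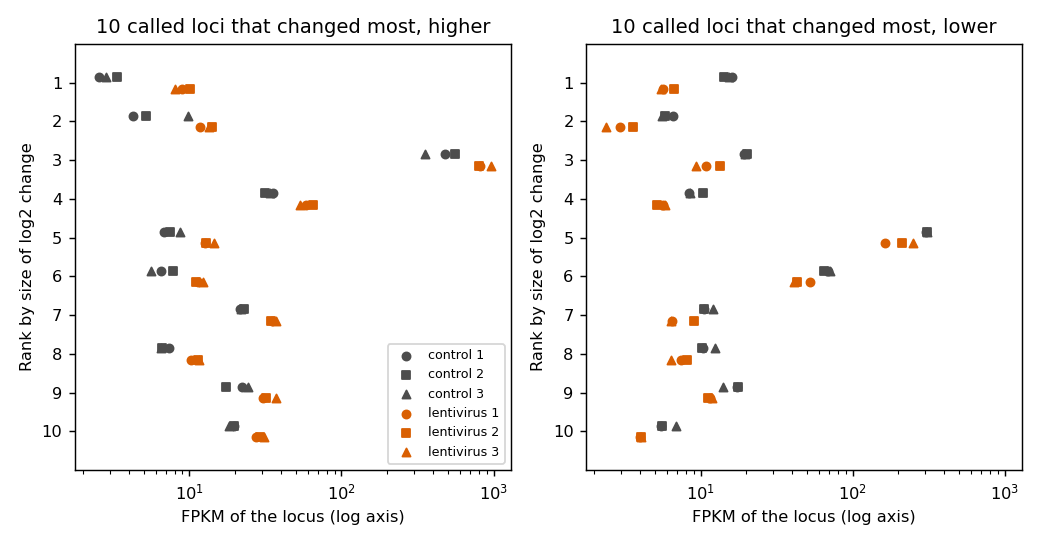
FPKM (log axis) in each library of the 10 called loci of chromosome 20 with the largest increase (left) and decrease (right) that met the level criteria, ordered by size of the log2 change; each point is 1 library. In all 20 loci the control points (grey) and lentivirus points (orange) are separate because the criteria required it. The leading increase had 2.55 to 3.34 FPKM in control against 8.08 to 10.1 FPKM in lentivirus libraries.

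The largest called changes of single features came from overlapping rows and were not carried by the sum of their locus. Of the members called with at least 1 log2, 2 rose and 5 fell, beside 41 and 78 of all 28434 features. Of these 7, 6 overlapped other rows; all 6 lay in loci whose sum changed by less than 0.5 log2, and in 1 of them the locus was called. The feature from 10162493 to 10170836 rose from 12.9, 20.6 and 22.3 to 55.8, 41.7 and 40.8 FPKM (1.29 log2), while its locus of 11 features stood at 229 ± 13.4 FPKM in control and 229 ± 4.9 in lentivirus libraries (SD, n = 3). In the 18-feature locus from 12291728 to 12294096, 1 feature rose from 0.235 FPKM or less in each control library to 13.5, 51.7 and 5.59 FPKM. Another feature of the same locus fell from 8.94, 4.34 and 11.7 FPKM to 0.126 FPKM or less, and the sum was 928 ± 92.3 and 1067 ± 42.9 FPKM. The feature from 7949005 to 7955276 fell from 10.1, 10.1 and 9.85 to 3.54, 3.36 and 2.46 FPKM in a locus that stood at 146 FPKM in both groups. Only the feature from 2862737 to 2880534, whose 6 values ran from 29.4, 18 and 9.23 FPKM in control to at most 0.0201 FPKM, lay in a locus that was called, from 255 ± 4.19 to 196 ± 3.86 FPKM (-0.38 log2, limma adjusted p = 0.00261).

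Called overlapping features otherwise mostly followed their locus when they rose and seldom when they fell. Of the 89 called higher, 88 lay in a locus with a change of the same sign and 71 in a locus called higher. Of the 10 called lower, 4 lay in a locus with a change of the same sign, all 4 of them called lower, and 1 lay in a locus called higher.

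Of the 5 most abundant loci of chromosome 20, 1 was called. The locus from 41031902 to 41032478, with 20 features, held 25415, 20753 and 26158 FPKM in control and 24234, 20633 and 17288 FPKM in lentivirus libraries, a difference of -0.22 log2 with overlapping groups (limma adjusted p = 0.321). The 85-feature locus from 122885212 to 122902671 was at 11292 ± 660 and 11620 ± 552 FPKM (limma adjusted p = 0.674), and its groups overlapped as well. The locus from 106867174 to 106887085 rose from 6694, 7339 and 7412 to 7831, 8928 and 8666 FPKM (0.24 log2, limma adjusted p = 0.0492) and lost its call in 5 of the 6 fits without 1 library. The loci from 9821814 to 9823201 and from 108982777 to 108987642 were at 6401 ± 270 and 6393 ± 321 FPKM in control and at 6946 ± 157 and 6807 ± 164 FPKM in lentivirus libraries, with limma adjusted p of 0.119 and 0.243.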

How the data were processed

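Messenger RNA of 6 COS-1 libraries, 3 control and 3 lentivirus-treated, was sequenced. The authors deposited 1 table of FPKM values, with 1 column per library. The tools named in the submitters' processing notes are Bowtie2 2.1.0.0, TopHat2 2.0.10, Cufflinks 2.1.1, Cuffdiff and CASAVA. Their order and the genome build were not given in the sources used here, nor were strand handling and scaling between libraries. FPKM holds no counts, so depth is unknown and counting error could not be computed. Cufflinks estimates how reads divide among overlapping rows, and the FPKM of very short rows can be inflated.

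The chromosome and the groupings were chosen with earlier results of these data known. Features (and, summed over overlapping rows, loci) with a mean of at least 1 FPKM were tested over the whole table on log2(FPKM + 1) with limma 3.58.1 (lmFit, eBayes with intensity trend) in R 4.3.3, two-sided, with the group as the only term. Benjamini-Hochberg adjustment ran over 28434 features or 16072 loci. The smallest p that an exact permutation test allows here is 0.1, so none is given. The fit was tested on simulated data with 200 changed rows. Over features it recovered 10 of 67 changes of 0.5 log2 (14.9%), 44 of 67 of 1 log2 (65.7%) and 54 of 66 of 2 log2, with 12 false calls beside them. Over loci it recovered 41 of 67 (61.2%), 59 of 67 (88.1%) and 63 of 66, with 8 false calls. The simulated rows were independent of each other, unlike overlapping rows, and fewer of them changed than were called in the data. Medians, bins and runs are descriptions and carry no p-value.

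Features and loci named were the 10 largest called changes each way, at least 5 FPKM in the higher group, at least 1 FPKM in every library and without overlap of the groups, the 5 most abundant loci, and the leading locus of each 10 Mb bin; 6 lone features met this downward. No symbol could be matched, so the gene lists and cell type markers were not analysed here, and at most 2 accessions each way are printed. The called features of at least 1 log2, the runs and the 1 Mb stretches were chosen after the values were seen. No sequence is printed.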

Additional observations from a re-analysis of the deposited data

How the results depend on the processing

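The direction of the chromosome's median change was kept under all alternatives tried. The median over features, 0.11 log2, was 0.121 and 0.078 at pseudocounts of 0.1 and 5, 0.026 with no filter on low values and 0.124 with a filter of 5 FPKM. Over lone features, 0.1 log2 became 0.111, 0.06, 0.056 and 0.14 under the same settings, and over loci 0.104 log2 became 0.075 at a pseudocount of 5, 0.07 with no filter and 0.124 at 5 FPKM. TPM, median ratio and quantile scaling gave 0.113 to 0.115 over features. Calls depended on more. Features called higher (150) became 92 with no filter, 90 without the intensity trend and 0 to 6 without 1 library, and features called lower (18) became 0 to 4 without 1 library. The features called higher were 6 without control replicate 2, 0 without either other control, and 1 without any one lentivirus library. Loci called higher (234) became 102 to 152 and loci called lower (41) became 15 to 27 without 1 library. A replicate block left limma with 0 called features in either direction (436 higher and 93 lower at an unadjusted p under 0.05), 137 loci higher and 15 lower. The shares called among all features and all loci under these settings are not given here. The labels do not say whether the numbers pair the libraries. Deviations of same-numbered libraries from their group means had Pearson's r of 0.131, -0.028 and 0.003 over all features, and differently numbered ones -0.135 to 0.128. Over the features of chromosome 20 the same-numbered r were 0.14, -0.066 and 0.112, and the others -0.175 to 0.073. These values do not settle whether the libraries are paired. Of the 16 lone features described, 16 lost their call with the block and 14 to 16 without 1 library. The 30 loci described are another set, with loci of several features, the most abundant loci and the leading locus of each bin. Of these 30, 25 kept their call, or its absence, with the block and 21 to 26 without 1 library. Of the 27 bins of 5 Mb, 2 had a negative median over features, from 30 Mb (-0.004 log2) and from 50 Mb (-0.219 log2, 2 features). Over loci 3 did, from 0 Mb (-0.011 log2), 30 Mb (-0.007 log2) and 50 Mb (-0.345 log2, 4 loci), and over lone features 2, from 0 Mb (-0.062 log2) and 50 Mb (-0.219 log2). Among the loci, the most abundant one turned to 0.045 log2 under quantile normalization and the 85-feature locus to -0.005 log2 without control replicate 2; neither was called. The causes were not tested. Leaving out spans under 300 bases or loci of over 20 features, both added after seeing the data, kept counts and medians close to the values reported, with 169 and 164 features called higher. Depth is unknown, so what counting adds to the spread was not estimated.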

Other observations

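The 1299 features of chromosome 20 under a mean of 1 FPKM are not members and were not tested singly in the main fit. Where they overlap other rows, their FPKM entered the sums of the loci. Of the 1299, 576 had a mean under 0.01 FPKM. Among the 636 at 0.1 to 1 FPKM, 53.1% were higher in the lentivirus libraries. Their median change was 0.011 log2 on the log2(FPKM + 1) scale.

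Counted by rank among all 263 bins of 10 Mb with at least 20 loci, the stretch of 90 to 100 Mb of chromosome 20 stood at rank 10 and that of 70 to 80 Mb at rank 12, and its lowest, 0 to 10 Mb, at rank 71. The chromosome thus held no bin among the 9 highest, and none in the lower part of the order. These ranks describe the same contrast by which the chromosome was chosen.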
